A study of Mus musculus with 16 samples.

Results

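The 49 genes described here were transcribed at 2 or more times the K1 level in erythroblasts with KLF1, and at or below the K1 level in erythroblasts with the mutant Nan-KLF1. They were chosen by the levels of newly made RNA, from 1556 genes in the authors' deposited table: more than 0.1 FPKM (fragments mapped to a gene, scaled by transcript length and library size) in K1 cells, a K1-ER over K1 ratio of at least 2 and a K1-NanER over K1 ratio of at most 1. These conditions were met by 55 genes, of which 6 were left out by symbol or gene family (Aqp3, E2f2, Slc1a5, Slc43a1, Slc4a1 and Trim56). The new-RNA ratios of the 49 are therefore a description of what selected them and carry no test. ChIP peaks, promoter sequence, position and fetal liver RNA played no part in the choice.

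The study had 16 mouse samples. New RNA was labelled with 500 uM 4-thiouridine (4sU) for 1 h in K1-ER cells (clones A and C), in K1-NanER cells (clones B and X) and in parental K1 cells, with 2 libraries per group; the labels give 200 nM 4-hydroxytamoxifen for all 3. Chromatin of K1-ER and of K1-NanER cells was precipitated with a KLF1 antibody after 3 h of induction, with 3 replicates pooled into 1 library per factor beside 1 input library. Polyadenylated RNA depleted of globin transcripts was sequenced from E14.5 fetal livers, 3 of Nan/+ and 3 of +/+ embryos. K1 is an erythroblast line that lacks KLF1. K1-ER carries KLF1 fused to the ligand-binding domain of the oestrogen receptor, which lets tamoxifen move it into the nucleus, and K1-NanER carries the same fusion of Nan-KLF1. The induced cells are clones and the K1 cells are their parent, so differences between clone and parent cannot be told apart from effects of the fusion protein. The column header of the K1 level does not name tamoxifen.

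KLF1 is the erythroid member of the Krüppel-like family. It binds CACCC boxes through zinc fingers and activates genes for globin, haem synthesis, the red cell membrane, the cell cycle and the breakdown of organelles. The Nan allele changes an amino acid of a zinc finger that reads the DNA. Nan/+ mice are anaemic, with the mutant and the normal protein in the same cells.

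The tables hold 1 FPKM value per group, as the authors computed it, so no SD can be given, the depth per library is unknown, and every p or q is from the authors' own comparisons. Both comparisons share the K1 libraries, and a low K1 value would raise both ratios. Esr1, the gene of the oestrogen receptor whose ligand-binding domain is in both fusions, stood at 136 FPKM in K1-ER cells, 70.3 in K1-NanER and 2.41 in K1. Like the 49 genes, it was lower in the mutant clones than in the KLF1 clones; its part in the results was not tested. Of 7 erythroid marker genes 3 were listed, and they did not behave alike. The transferrin receptor gene Tfrc had 93.7 FPKM in K1-ER cells, 112 in K1-NanER and 21.1 in K1. Alas2 had 25.6 FPKM in K1-ER cells, 26.0 in K1-NanER and 5.81 in K1. Epor had 485 FPKM in K1-ER cells, but 139 in K1-NanER beside 129 in K1. Macrophage, granulocyte and muscle markers were not among the listed genes. Of the megakaryocyte, hepatocyte and lymphoid markers 1 each was listed, all at low levels. Vwf had 2.88 FPKM in K1-ER cells, 1.99 in K1-NanER and 5.13 in K1. Dlk1 had 0.797 FPKM in K1-ER cells, 0.651 in K1-NanER and 3.01 in K1. Cd79a had 1.41 FPKM in K1-ER cells, 1.13 in K1-NanER and 0.1 in K1, the lowest K1 level listed.

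The median new-RNA level of the 49 genes was 49.1 FPKM in K1-ER cells, 14.1 in K1-NanER and 17.3 in K1. Their K1-ER over K1 ratio ran from 2.00 to 51.2 with a median of 2.80, against a median of 1.65 over the whole table. Their K1-NanER over K1 ratio ran from 0.145 to 0.999 with a median of 0.727, against 2.05 over the whole table. Of the 49, 48 had in the authors' deposited table a q of at most 0.05 and a higher level in K1-ER, a call that 37.9% of the table's genes had. The exception was Gpx1, with a q of 0.0504 in that table. Only Fam89b and Gpx1 fell in K1-NanER by the same threshold, with q values of 0.0453 and 0.00213 in the authors' deposited table, in which 28.3% of genes had such a fall. Since these contrasts chose the genes, nothing is read from either count. For 20 of the 49 the level in K1-NanER was above 0.8 of that in K1, and for 5 it was at most 0.5. K1-ER stood 2.10 to 58.8 times above K1-NanER, with a median of 4.21; a gap of at least 2 times follows from the rule, and the authors' table holds no test of these groups against each other.

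**Figure D1:**
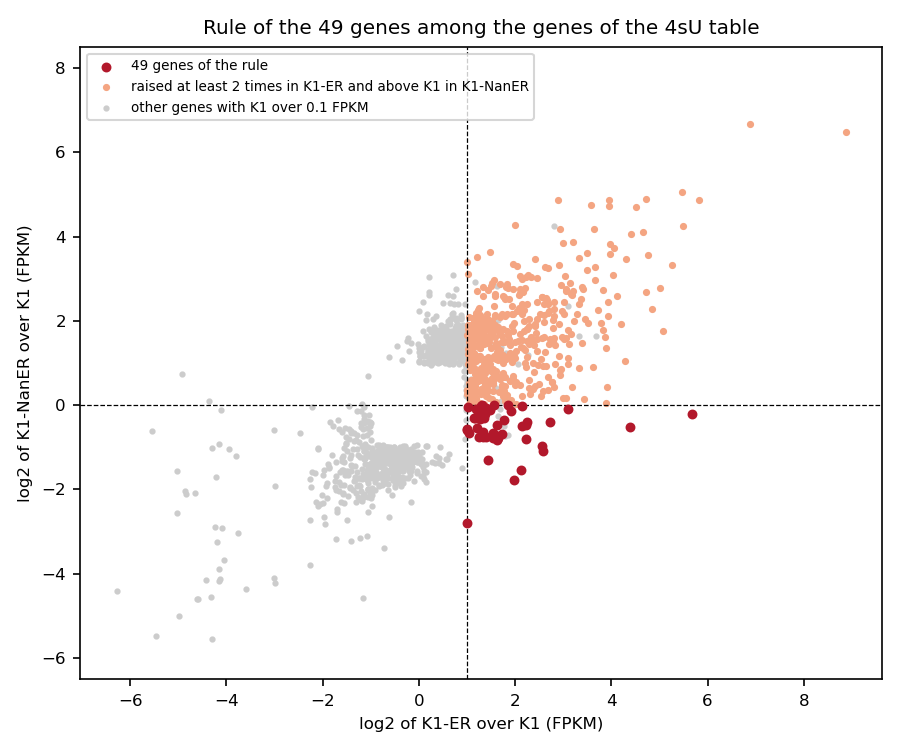
Each point is a gene of the 4sU table; the horizontal axis is the log2 ratio of K1-ER over K1 and the vertical axis that of K1-NanER over K1, with dashed lines at the limits of the rule. The 49 genes fill the lower right corner, and the 479 genes raised at least 2 times in K1-ER and above K1 in K1-NanER lie over them. The area round the origin is empty. How the authors chose the genes to list was not checked here.

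The limits cut through a continuous range. The K1-ER over K1 ratio was 2.002 for 2310057M21Rik, 2.012 for Abca7 and 2.015 for Gpx1 just inside, and 1.982 for Brpf3, 1.977 for Syngr2 and 1.955 for Glrx5 just outside. The K1-NanER over K1 ratio was 0.9994 for Cirbp, 0.997 for Mafk and 0.9953 for Hexim1 just inside, and 1.007 for Rhd, 1.011 for Fosl2 and 1.014 for Sdk1 just outside.

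Genes of transcription and RNA control made up 9 of the 49, with a median K1-ER over K1 ratio of 2.64. Mafk, a small Maf protein that pairs with p45 NF-E2 in erythroid cells, had the highest K1-ER level of all 49, at 423 FPKM in K1-ER cells, 117 in K1-NanER and 118 in K1. Rbm38, an RNA-binding protein that acts on splicing in late erythroid cells, reached 333 FPKM in K1-ER cells, 121 in K1-NanER and 151 in K1. The immediate early gene Ier2 showed a wider gap, with 205 FPKM in K1-ER cells, 31.8 in K1-NanER and 43.7 in K1. In Mafk and in Hexim1, which encodes an inhibitor of the elongation factor P-TEFb, the mutant clones and the parental cells stood at nearly the same level; Hexim1 had 47.3 FPKM in K1-ER cells, 16.0 in K1-NanER and 16.0 in K1. Cirbp, a cold-inducible RNA-binding protein, behaved alike, at 35.2 FPKM in K1-ER cells, 14.1 in K1-NanER and 14.1 in K1. The transcription factor gene Thap11 was at 125 FPKM in K1-ER cells, 28.0 in K1-NanER and 47.1 in K1, and Irf2bpl, a coregulator related to an IRF2 partner, was near the lower limit with a K1-ER over K1 ratio of 2.07. Trmt12 and Mrm1, enzymes that modify transfer RNA and mitochondrial ribosomal RNA, complete the group; their K1-ER over K1 ratios were 2.64 and 3.34, beside K1-NanER over K1 ratios of 0.950 and 0.620.

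Ligands, receptors and signalling proteins accounted for 7 genes. Nyap1, an adaptor of phosphoinositide kinase known from neurons, had the largest ratio of the 49, with 22.0 FPKM in K1-ER cells, 0.375 in K1-NanER and 0.430 in K1. It was barely transcribed in K1-NanER or K1 cells. Fam132b encodes erythroferrone, the hormone by which erythroblasts lower hepcidin and release iron; its new RNA was at 22.1 FPKM in K1-ER cells, 5.14 in K1-NanER and 7.18 in K1. Lefty1, a secreted inhibitor of Nodal in the TGF-beta family, stood at 49.1 FPKM in K1-ER cells, 6.04 in K1-NanER and 10.5 in K1. The co-receptor Tgfbr3 was a low gene of the same family's signalling, at 3.52 FPKM in K1-ER cells, 0.657 in K1-NanER and 1.13 in K1. Tollip, an adaptor that dampens Toll-like receptor signals, had 143 FPKM in K1-ER cells, 47.0 in K1-NanER and 57.5 in K1. The kinase genes Map3k11 and Pak4 had K1-ER over K1 ratios of 2.51 and 2.33.

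Of the 8 genes for the cytoskeleton, adhesion and the cell surface, several are better known from neurons or synapses than from blood. Lrrc4b, a synaptic adhesion protein, was at 12.5 FPKM in K1-ER cells, 0.411 in K1-NanER and 0.593 in K1. Map1a, which binds microtubules, was at 5.43 FPKM in K1-ER cells, 0.425 in K1-NanER and 0.906 in K1. With Nyap1 they were the only 3 genes of the 49 under 1 FPKM in K1, where a small difference in level moves a ratio most. Icam5, an adhesion molecule of forebrain neurons, had 21.2 FPKM in K1-ER cells, 6.95 in K1-NanER and 7.56 in K1. Pfn1, profilin, supplies actin monomers to growing filaments and was the highest of the group in each kind of cell, with 338 FPKM in K1-ER cells, 77.7 in K1-NanER and 98.8 in K1. Marveld1, a membrane protein with a MARVEL domain, had 32.6 FPKM in K1-ER cells, 3.58 in K1-NanER and 3.80 in K1. The membrane protein gene Tmem79 had 23.1 FPKM in K1-ER cells, 1.83 in K1-NanER and 5.30 in K1, one of the lowest K1-NanER over K1 ratios at 0.346. Ppp1r9b, the actin-binding phosphatase partner spinophilin, and Rtn4rl2, a relative of the Nogo receptor, had K1-ER over K1 ratios of 2.34 and 2.30.

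Protein tagging and turnover was represented by 7 genes. Atg4d, a protease that processes the ubiquitin-like proteins of autophagy, was at 99.0 FPKM in K1-ER cells, 18.0 in K1-NanER and 32.0 in K1. It was the only member found in the 9 gene lists used here, which held haem, membrane, erythroid regulator, cell cycle, death, autophagy, chromatin, lipid and glycolysis genes. These lists are partial, and members such as Fam132b, Lpcat1 and Abca7 were not in them. Aqp3, E2f2 and Slc4a1 met the ratios but were left out by symbol or family. The lack of other matches therefore does not show that such genes are absent. Of the 40 listed autophagy genes 7 had a row in the authors' deposited table, where 3 rose and 0 fell in K1-ER, while 3 rose and 1 fell in K1-NanER; over all genes of that table, 47.4% rose in K1-NanER. Ufsp1, which matures the ubiquitin-like modifier UFM1, had 159 FPKM in K1-ER cells, 25.8 in K1-NanER and 36.1 in K1. Asb6, a substrate receptor of cullin ubiquitin ligases, was more abundant, at 271 FPKM in K1-ER cells, 97.8 in K1-NanER and 121 in K1. Ankrd9, another such receptor, was at 73.3 FPKM in K1-ER cells, 16.4 in K1-NanER and 16.6 in K1. The deubiquitinase gene Josd2, the F-box gene Fbxo44 and Apeh, a peptidase that removes acylated amino acids, had K1-ER over K1 ratios of 3.00, 2.93 and 2.40, with K1-NanER over K1 ratios of 0.608, 0.634 and 0.793.

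Metabolism, redox and lipid genes numbered 9. Gpx1, the glutathione peroxidase that clears hydrogen peroxide in red cells, had 284 FPKM in K1-ER cells, 20.5 in K1-NanER and 141 in K1. Its level in the mutant clones was the lowest of the 49 relative to K1, at a ratio of 0.145. Dhrs11, a short-chain dehydrogenase, had 172 FPKM in K1-ER cells, 27.6 in K1-NanER and 36.3 in K1. Uap1l1, a relative of the enzyme that makes UDP-N-acetylglucosamine, had 90.0 FPKM in K1-ER cells, 7.73 in K1-NanER and 15.2 in K1. Hpdl, a mitochondrial dioxygenase, had 53.8 FPKM in K1-ER cells, 8.11 in K1-NanER and 20.0 in K1, a K1-NanER over K1 ratio of 0.406. Lpcat1, which reacylates lysophosphatidylcholine, had 75.0 FPKM in K1-ER cells, 35.7 in K1-NanER and 36.9 in K1. The palmitoyltransferase gene Zdhhc4, the galactosyltransferase gene B4galt2, the oxygenase gene Ogfod2 and the lipid transporter gene Abca7 had K1-ER over K1 ratios of 2.54, 2.51, 2.29 and 2.01.

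Trafficking and organelle membranes gave 5 genes, with a median K1-ER over K1 ratio of 2.44. Agfg2, an Arf GAP with nucleoporin-like repeats, was the highest, at 222 FPKM in K1-ER cells, 44.7 in K1-NanER and 76.3 in K1. Pqlc1, a PQ-loop membrane protein, had 33.4 FPKM in K1-ER cells, 8.23 in K1-NanER and 14.0 in K1. Ap5s1, a subunit of an adaptor complex of late endosomes, had 41.2 FPKM in K1-ER cells, 13.6 in K1-NanER and 15.9 in K1. Tapbp, or tapasin, which loads peptides onto MHC class I, had a K1-ER over K1 ratio of 2.44. The last 4 genes are little described. Fam89b had 81.6 FPKM in K1-ER cells, 6.06 in K1-NanER and 20.7 in K1, a K1-NanER over K1 ratio of 0.294. Avpi1, named for its induction by vasopressin, had 95.6 FPKM in K1-ER cells, 23.0 in K1-NanER and 25.3 in K1. Spata2l had 42.6 FPKM in K1-ER cells, 4.85 in K1-NanER and 6.42 in K1, and 2310057M21Rik had 51.3 FPKM in K1-ER cells, 17.3 in K1-NanER and 25.7 in K1.

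**Figure D2:**
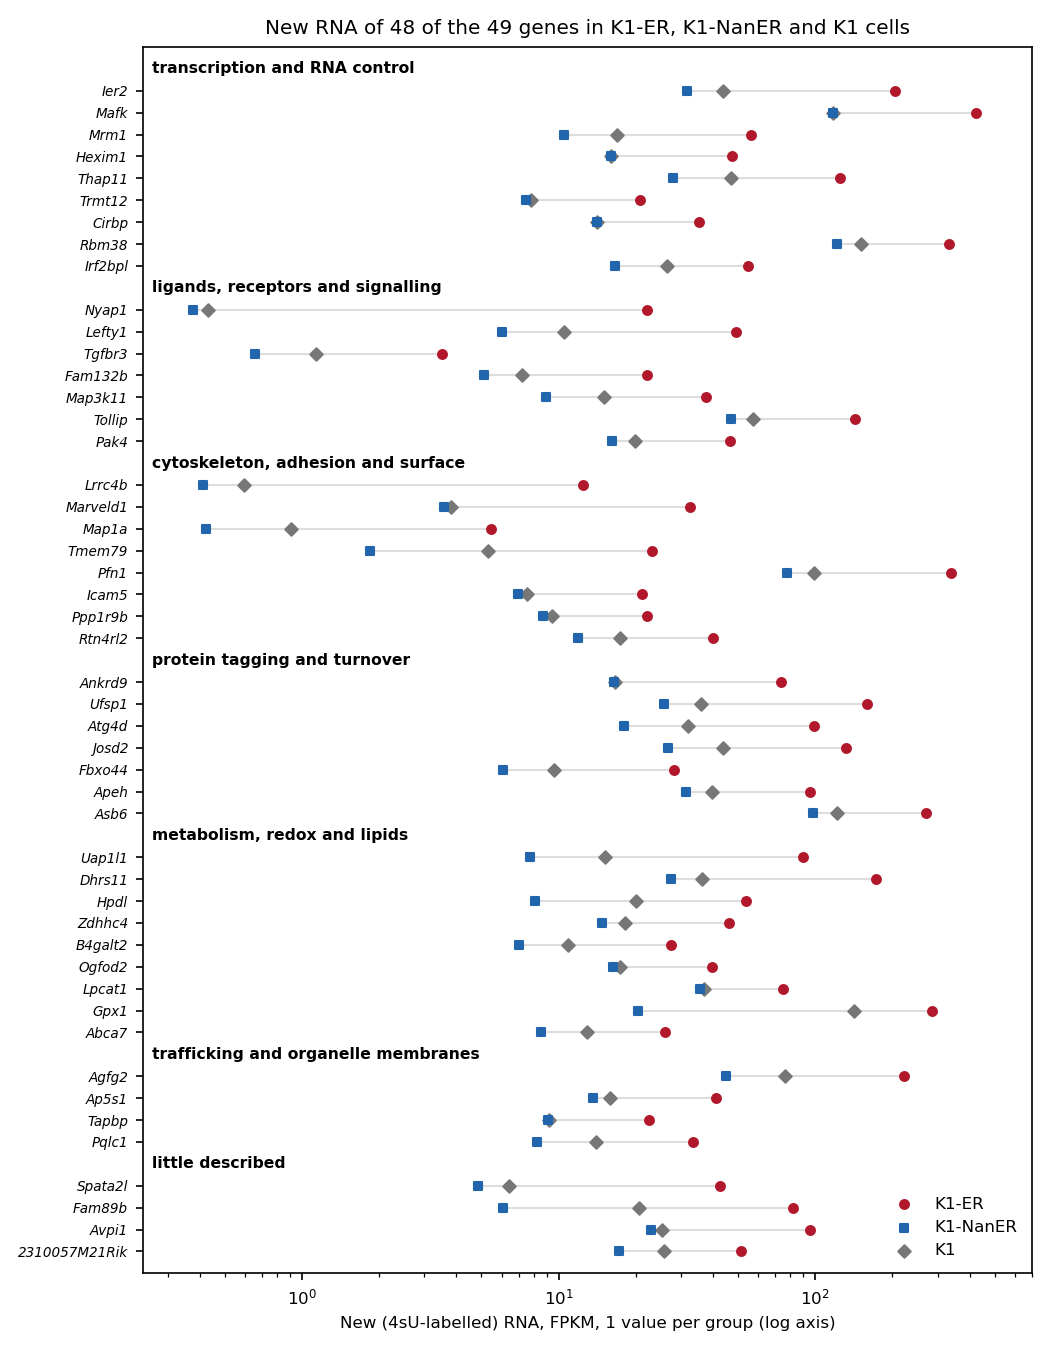
New RNA of 48 of the 49 genes by role, in FPKM on a log axis, with 1 value per group for K1-ER (circles), K1-NanER (squares) and K1 (diamonds). The rule places every square at or left of its diamond; the distance between them is small for Mafk, Hexim1 and Cirbp and widest for Gpx1, at 20.5 FPKM in K1-NanER beside 141 in K1.

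KLF1 peaks were assigned to most of the genes, and Nan-KLF1 peaks to fewer. By the nearest gene the authors gave each ChIP peak, 40 of the 49 (81.6%) had a KLF1 peak, against 332 of 479 (69.3%) genes raised at least 2 times in K1-ER and above K1 in K1-NanER, and 45.8% of the whole table. A Nan-KLF1 peak was assigned to 14 of the 49 (28.6%), against 208 of the 479 (43.4%) and 26.5% of the whole table. By this assignment the members' share with Nan-KLF1 was near that of the table, and their share with KLF1 above it. KLF1 peaks alone were found for 26 genes (53.1%), against 142 of the 479 (29.6%). All 14 genes with a Nan-KLF1 peak also had a KLF1 peak; in the comparison set 18 of 479 (3.76%) had Nan-KLF1 alone. No peak of either factor was assigned to 9 genes (18.4%), against 129 of the 479 (26.9%). No test of these shares was made, because peaks of 1 experiment are not replicates and the comparison sets were formed from the same RNA levels.

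**Figure D3:**
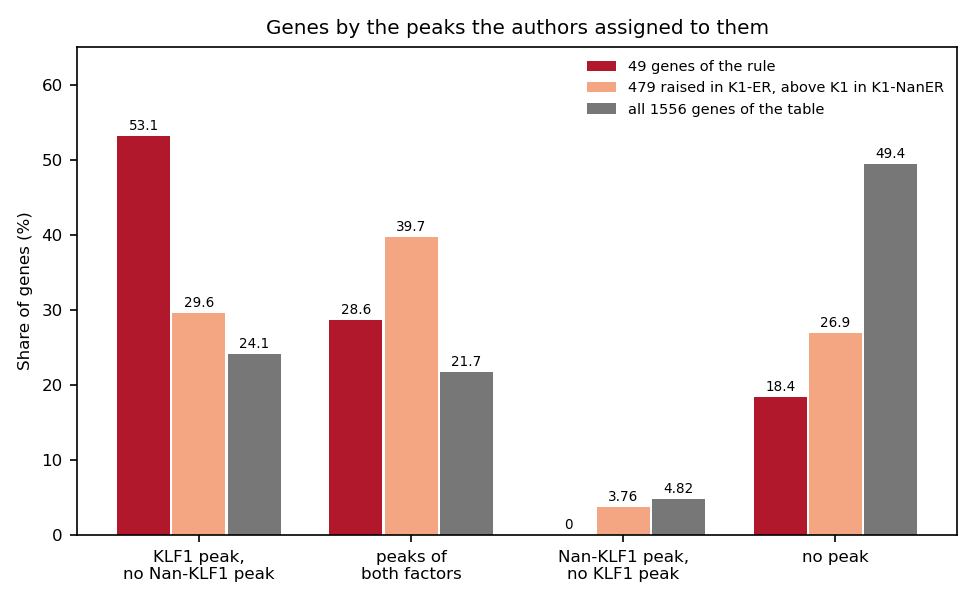
Share of genes, in percent, by the peaks the authors assigned to them, for the 49 genes, the 479 genes raised in K1-ER and above K1 in K1-NanER, and all 1556 genes. KLF1 peaks without a Nan-KLF1 peak were found for 53.1% of the 49, 29.6% of the 479 and 24.1% of the table.

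The loci of the 49 genes were short, with a median of 7788 bp (996 to 183026 bp) against 19688 bp in the 479 and 17815 bp in the table, which bears on how many peaks fall near a gene. Among loci at or under the table's median, a Nan-KLF1 peak was assigned to 12 of 36 of the genes (33.3%), against 104 of 225 of the comparison genes (46.2%) and 202 of 778 in the table (26.0%). KLF1 alone was assigned to 16 of those 36 (44.4%), against 70 of the 225 (31.1%) and 162 of the 778 (20.8%). Any KLF1 peak was assigned to 77.8% of the 36 and 74.2% of the 225, a KLF1 promoter peak to 44.4% and 42.7%, and no peak to 22.2% and 22.7%. Among short loci the genes and the comparison genes were thus close in KLF1 peaks, and the gap that was left was in Nan-KLF1.

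A KLF1 peak at the promoter, by the authors' annotation, was present at 24 of the 49 genes (49.0%), against 187 of the 479 (39.0%) and 24.6% of the table. They were spread over all roles and included Lrrc4b, Map1a, Marveld1, Pfn1 and Tmem79; Lefty1, Map3k11 and Tollip; Irf2bpl and Rbm38; Ankrd9, Apeh, Atg4d and Fbxo44; Gpx1, Hpdl and Uap1l1; Pqlc1 and Tapbp; Fam89b, Avpi1, Spata2l and 2310057M21Rik. By the authors' assignment none of the 7 signalling genes and none of the 9 metabolic genes had a Nan-KLF1 peak. Of the 9 genes of transcription and RNA control 5 had one. The Nan-KLF1 peak assigned to Mrm1, of the last group, lay inside the locus of the metabolic gene Dhrs11. These counts are too small to set the roles apart.

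In all, the members had 73 KLF1 peaks. Their median fold enrichment of ChIP over input, the authors' value for each peak, was 98.7 (31.6 to 529), against 75.6 over all 5326 KLF1 peaks. Of the 73, 24 (32.9%) were at promoters, 23 (31.5%) distal and 19 (26.0%) in introns, against 29.4%, 24.0% and 36.6% of all KLF1 peaks. The summit lay inside the locus for 24 peaks and within 1 kb of it for 45, with a median distance of 243 bp. Irf2bpl had the most, 9 peaks up to 67816 bp away, in a region where the nearest gene may not be the one bound. The strongest peak was distal to Rbm38, at chr2:172845116-172846229 (mm9), with a fold enrichment of 529. The next, in the untranslated region of Ier2 (chr8:87185005-87185833, mm9) had 395, an intergenic peak assigned to Irf2bpl (chr12:88164869-88165408, mm9) had 348, an intronic peak of Map1a (chr2:121119818-121120384, mm9) had 332, and the peak distal to Nyap1 (chr5:138181172-138183378, mm9) had 329. Of these 5 strongest peaks, those of Rbm38 and Irf2bpl overlapped a Nan-KLF1 peak.

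**Figure D4:**
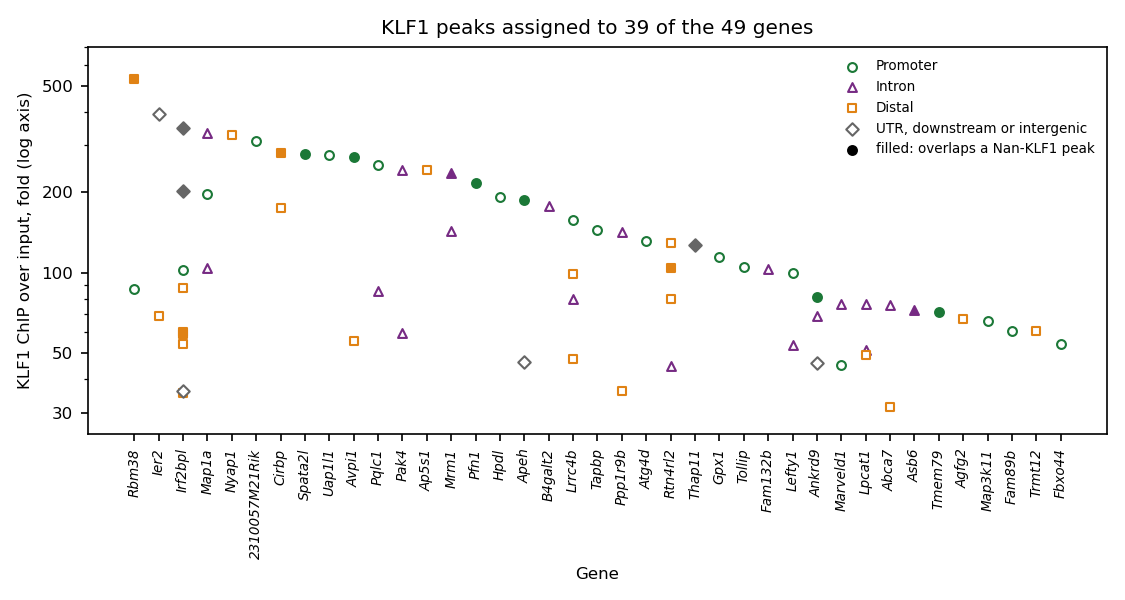
Fold enrichment of ChIP over input, on a log axis, for 71 KLF1 peaks of 39 genes, which are ordered by their strongest peak; shapes give the authors' location and filled symbols overlap a Nan-KLF1 peak by at least 1 bp. The 15 filled peaks run from 529 at Rbm38 down to 60.1 at Irf2bpl. The peaks below that, down to 31.6 at Abca7, are all open, and most of the genes have open symbols alone.

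At the level of single peaks, 15 of the 73 (20.5%) overlapped a Nan-KLF1 peak by at least 1 bp, against 22.8% of all KLF1 peaks, so overlap at the members' peaks was near that of the whole list. The 15 lay in 13 genes: Ankrd9, Apeh, Asb6, Avpi1, Cirbp, Irf2bpl, Mrm1, Pfn1, Rbm38, Rtn4rl2, Spata2l, Thap11 and Tmem79. Agfg2, the other gene with peaks of both factors, had them apart, with Nan-KLF1 at chr5:138142577-138142981 and KLF1 at chr5:138126966-138127908 (mm9). From the side of the mutant, 16 of the members' 25 Nan-KLF1 peaks (64.0%) overlapped a KLF1 peak, against 44.8% of all 2758 Nan-KLF1 peaks. The median fold enrichment of the 25 was 107, as in the whole Nan-KLF1 list. Binding by the mutant factor was therefore recorded at genes whose new RNA was not above K1 in the mutant clones. At Pfn1 the mutant peak had a fold enrichment of 283 and the KLF1 peak 216, with summits 9 bp apart, while the new RNA was 338 FPKM in K1-ER cells, 77.7 in K1-NanER and 98.8 in K1. At Rbm38 the distal Nan-KLF1 peak had 224 and the KLF1 peak 529, at Irf2bpl an intergenic pair had 421 and 348, and at Spata2l the promoter pair had 195 and 278. Fold enrichments come from different libraries and inputs and are given side by side, not compared.

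The central motif the authors gave each peak has 8 bases, written CC, 3 variable bases, CCC. It was present in 59 of the members' 73 KLF1 peaks (80.8%), against 78.9% of all KLF1 peaks. Of the 59, 49 (83.1%) had C as the fourth base, against 80.2%, and 39 (66.1%) had C followed by A or G, the CACCC-type core, against 68.4% in the whole list. The most frequent were CCCCGCCC in 12 peaks (16.4%, the share in all KLF1 peaks as well), CCCCACCC in 10 (13.7% against 9.67%), CCACACCC and CCCCTCCC in 9 each (12.3%, against 10.4% and 5.95%) and CCACGCCC in 8 (11.0% against 17.4%). Of the members' 25 Nan-KLF1 peaks 17 (68.0%) had a motif, against 68.3% of that list, and 11 of these 17 (64.7%) had C as the fourth base, against 50.3%. Both counts are small.

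The 16 overlapping pairs of peaks show the letters at the centre of each factor's peak at shared places. In 7 pairs the central motif was the same, in 6 it differed, in 2 neither peak had one and in 1 only the KLF1 peak had one. At the Avpi1 promoter and at the distal sites of Cirbp and Rbm38 the peaks of the mutant were centred on other letters than those of KLF1, and at the promoters of Pfn1 and Spata2l and the shared sites of Irf2bpl on the same letters. A second Nan-KLF1 peak at Pfn1, 744 bp from the KLF1 summit, was centred on other letters, CCCCGCCC. The letters also differed at the Tmem79 promoter, with CCCCACCC for Nan-KLF1 and CCCTGCCC for KLF1. Downstream of Thap11 they were CCCCGCCC for Nan-KLF1 and CCCCACCC for KLF1. In these pairs the summits lay 44 bp apart at Avpi1, 53 at Cirbp, 70 at Thap11, 91 at Rbm38 and 95 at Tmem79. Among pairs with the same letters they lay 9 bp apart at the Pfn1 promoter and 69 at Spata2l. Most of these distances exceed the 8 bases of a motif by far. The letters of a pair therefore need not come from the same site, and this was not tested. Examples of both cases are set out below, with the Nan-KLF1 motif first.
Avpi1 promoter, Nan-KLF1: CCAAACCC
Avpi1 promoter, KLF1: CCCCGCCC
Cirbp distal, Nan-KLF1: CCCATCCC
Cirbp distal, KLF1: CCCAACCC
Rbm38 distal, Nan-KLF1: CCACGCCC
Rbm38 distal, KLF1: CCCCGCCC
Pfn1 promoter, Nan-KLF1: CCATTCCC
Pfn1 promoter, KLF1: CCATTCCC
Spata2l promoter, Nan-KLF1: CCACGCCC
Spata2l promoter, KLF1: CCACGCCC

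Promoter windows of 300 bases, from 250 before to 50 after the annotated start (RefSeq, GRCm38.p6), were at hand for 39 of the 49 genes, 44 windows in all. Fam89b, Ier2, Lefty1, Pqlc1, Spata2l, Tgfbr3, Trmt12, Uap1l1 and Zdhhc4 were not among them. The motif CACCC on either strand was in 33 of the 44 windows (75.0%), against 69.0% of the 532 windows of the 479 genes and 57.5% of all 32851 windows. The wider motif CCNCNCCC, which can overlap it, was in 77.3%, against 82.1% and 49.5%. Median GC content was 63.7%, against 65.7% and 52.7%, so both raised sets were richer in G and C than promoters at large. Of 13 promoter peaks whose gene had a window and whose peak had a motif, the letters of that motif were in the window in 9 (69.2%), against 772 of 984 (78.5%) over all KLF1 peaks of this kind.

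The promoters below, except that of Fam132b, are of genes with a KLF1 peak that the authors annotated as promoter. They show those letters in capitals on either strand, together with every CACCC. Positions count from 0 at the annotated start. The letters were matched by sequence, not by the peak's position, so a match need not be the base pairs under the peak. Atg4d (chr9:21265035-21265334, plus strand) holds CCACACCC, the motif of its peak, at -58, read on the opposite strand and overlapping one of its 3 CACCC matches. Map1a (chr2:121289352-121289651, plus strand) holds CCCCGCCC at -107, -102 and -80, the first pair overlapping each other. Its promoter peak, at chr2:121120629-121121563 (mm9), lay inside a locus that starts at 121115338 (mm9). The window at the annotated start need not hold that peak, so these letters cannot be placed under it, although Map1a is among the matches counted above. Rbm38 (chr2:173021652-173021951, plus strand) holds CCACGCCC, the motif of its promoter peak, at -16, and CACCC at -239 and -224. Pfn1 (chr11:70654601-70654900, minus strand) holds no CACCC, and the letters CCATTCCC, the central motif of both factors' promoter peaks, occur at -53. The Pfn1 window also has 12 matches of the wider motif CCNCNCCC, which can overlap and are not in capitals. Among them is CCCCGCCC, the motif of the second Nan-KLF1 peak at Pfn1. Which of these letters either factor bound was not tested. Fam132b, whose RefSeq symbol is Erfe (chr1:91366180-91366479, plus strand), is shown as the gene with the largest ratio between the liver groups, at low levels of RNA; its KLF1 peak was intronic, and its window holds CACCC at -224, -202 and -183.
Atg4d: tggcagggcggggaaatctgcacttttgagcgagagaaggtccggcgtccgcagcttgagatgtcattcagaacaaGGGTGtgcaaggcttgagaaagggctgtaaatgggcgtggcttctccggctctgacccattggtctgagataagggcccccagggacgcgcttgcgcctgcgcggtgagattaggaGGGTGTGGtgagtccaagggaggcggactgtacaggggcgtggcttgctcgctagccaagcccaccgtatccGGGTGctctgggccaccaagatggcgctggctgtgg
Map1a: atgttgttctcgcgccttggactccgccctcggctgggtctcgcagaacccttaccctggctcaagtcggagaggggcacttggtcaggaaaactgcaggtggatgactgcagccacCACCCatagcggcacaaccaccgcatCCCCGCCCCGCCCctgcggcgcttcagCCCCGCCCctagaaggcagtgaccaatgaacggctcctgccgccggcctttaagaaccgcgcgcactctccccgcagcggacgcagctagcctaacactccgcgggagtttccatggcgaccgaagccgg
Rbm38: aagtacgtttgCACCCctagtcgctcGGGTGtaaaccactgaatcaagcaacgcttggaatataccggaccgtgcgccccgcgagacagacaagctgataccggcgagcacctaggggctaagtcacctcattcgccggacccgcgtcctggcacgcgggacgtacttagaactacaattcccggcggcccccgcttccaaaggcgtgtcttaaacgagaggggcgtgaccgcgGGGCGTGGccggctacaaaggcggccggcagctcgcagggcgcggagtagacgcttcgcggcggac
Pfn1: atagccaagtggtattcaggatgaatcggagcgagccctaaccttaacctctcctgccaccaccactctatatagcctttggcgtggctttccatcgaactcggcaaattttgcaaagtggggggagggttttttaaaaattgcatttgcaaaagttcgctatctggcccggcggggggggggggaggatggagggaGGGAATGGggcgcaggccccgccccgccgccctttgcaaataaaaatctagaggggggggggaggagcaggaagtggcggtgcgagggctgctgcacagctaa
Fam132b: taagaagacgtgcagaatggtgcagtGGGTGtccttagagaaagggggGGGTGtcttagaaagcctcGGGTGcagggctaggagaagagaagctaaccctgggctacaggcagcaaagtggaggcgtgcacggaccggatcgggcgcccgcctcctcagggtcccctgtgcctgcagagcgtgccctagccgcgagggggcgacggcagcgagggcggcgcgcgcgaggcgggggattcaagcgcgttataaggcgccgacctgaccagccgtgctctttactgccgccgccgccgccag

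The 9 genes without an assigned peak were Dhrs11, Hexim1, Icam5, Josd2, Mafk, Ogfod2, Tgfbr3, Ufsp1 and Zdhhc4. For 6 of them a KLF1 peak assigned to another gene, or to none, had its summit within 10 kb of the locus. One with a fold enrichment of 237 lay inside the Dhrs11 locus but was assigned to Mrm1, also a member, whose locus is 1212 bp away. The Nan-KLF1 peak that overlaps this KLF1 peak, with a fold enrichment of 107, was assigned to Mrm1 as well. A pair of intronic KLF1 peaks inside Tgfbr3, with fold enrichments of 216 and 177, carried no gene name. A peak with 164, assigned to Tmem184a, lay 1632 bp from Mafk. Counted by distance, 91.8% of the 49 genes had a KLF1 peak within 10 kb, against 76.6% of the 479 and 55.2% of the table. A Nan-KLF1 peak lay within 10 kb of 42.9%, against 48.0% of the 479 and 33.2% of the table. Within 50 kb it did for 67.3%, against 63.9% of the 479 and 50.8% of the table, so the Nan-KLF1 share was below that of the 479 by the authors' assignment and within 10 kb, and above it within 50 kb. Some of the genes are neighbours: 11 of the 49 (22.4%) lay within 100 kb of another, in 7 pairs, against 28.6% of the 479. Besides Mrm1 and Dhrs11 the pairs included Lrrc4b with Josd2, Avpi1 with Marveld1, Agfg2 with Nyap1, and Map3k11 with Fam89b.

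In fetal liver 7 of the 49 genes (14.3%) were listed as different between Nan/+ and +/+, with 4 lower and 3 higher in Nan/+. Genes lower in Nan/+ were 8.16% of the 49, against 2.92% of the 479 and 2.25% of the 4sU table. Genes higher were 6.12%, against 5.64% and 4.31%. Among loci at or under the table's median, only 1 of 36 of the genes (2.78%) was lower, against 2.22% of the 225 comparison genes and 1.67% of the 778. There 3 of the 36 (8.33%) were higher, against 6.67% and 6.04%. All 7 had a KLF1 peak, as did 78.0% of the liver-listed genes among the 479 and 63.7% of those in the table. With 81.6% of the 49 having one, little can be read from this count. The authors' liver table lists 793 genes, of which 24.6% were lower in Nan/+, and genes without a row have no level here. In bulk liver, fewer cells of a type and less RNA per cell cannot be told apart.

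Fam132b had 1.06 FPKM in Nan/+ livers and 4.99 FPKM in +/+ livers, a log2 fold change of -2.24 with q = 0.00244 in the authors' deposited table. Its lower new RNA in K1-NanER than in K1-ER cells follows from the rule, so nothing is read from the shared direction. Pqlc1 had 10.9 FPKM in Nan/+ livers and 40.5 FPKM in +/+ livers, a log2 fold change of -1.89 (q = 0.00244 in the authors' deposited table). Lpcat1 had 21.5 FPKM in Nan/+ livers and 54.9 FPKM in +/+ livers, a log2 fold change of -1.35 (q = 0.00611 in the authors' deposited table). These 3 genes had KLF1 peaks and no Nan-KLF1 peak. Agfg2, with a Nan-KLF1 peak apart from its KLF1 peak, had 14.2 FPKM in Nan/+ livers and 29.4 FPKM in +/+ livers, a log2 fold change of -1.05 (q = 0.0141 in the authors' deposited table).

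The other 3 genes were higher in Nan/+ liver, although in cell lines their new RNA was lower in K1-NanER than in K1-ER. Uap1l1 had 16.9 FPKM in Nan/+ livers and 6.57 FPKM in +/+ livers, a log2 fold change of 1.37 (q = 0.00244 in the authors' deposited table). Ap5s1 had 17.8 FPKM in Nan/+ livers and 8.28 FPKM in +/+ livers, a log2 fold change of 1.10 (q = 0.0128 in the authors' deposited table). Avpi1 had 18.4 FPKM in Nan/+ livers and 8.74 FPKM in +/+ livers, a log2 fold change of 1.08 (q = 0.0307 in the authors' deposited table). Uap1l1 and Ap5s1 had 1 KLF1 peak each and no Nan-KLF1 peak, and Avpi1 had both factors at its promoter. The liver holds other cells, and their genes moved too: 3 of 3 granulocyte markers were higher in Nan/+ (S100a8 1300 FPKM in Nan/+ and 180 FPKM in +/+), as were 2 of 4 megakaryocyte markers (Pf4 622 FPKM in Nan/+ and 245 FPKM in +/+) and 1 of 3 macrophage markers, Cd68 (Adgre1 and Csf1r were not listed). Both muscle markers were lower in Nan/+ (Myog 0.06 FPKM in Nan/+ and 5.00 FPKM in +/+), and 0 of 7 erythroid and 0 of 4 hepatocyte markers were listed. The part of these cells in the 7 results was not tested.

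**Figure D5:**
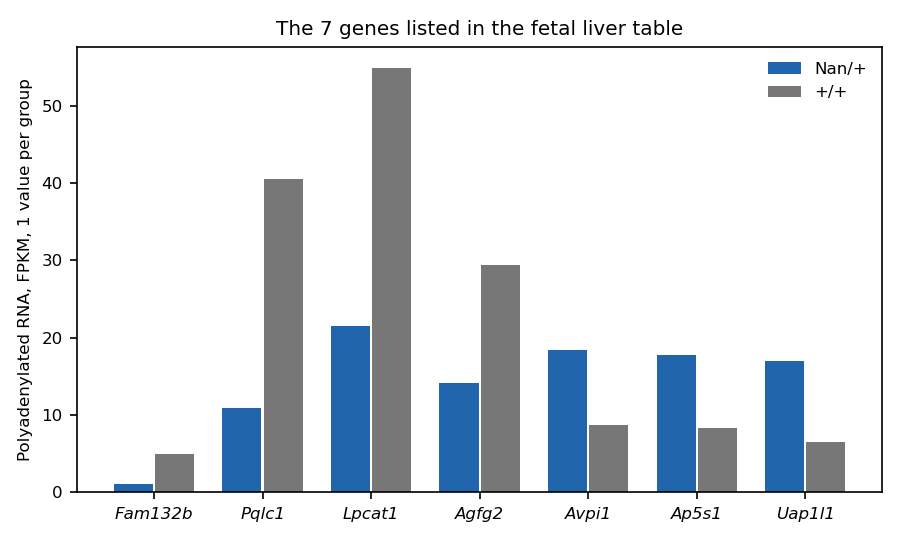
Polyadenylated RNA in FPKM, 1 value per group as the authors gave it, for the 7 genes with a row in the liver table, with Nan/+ left of +/+. Fam132b, Pqlc1, Lpcat1 and Agfg2 are lower in Nan/+, and Avpi1, Ap5s1 and Uap1l1 are higher.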

How the data were processed

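Levels of new (4sU) RNA and of fetal liver RNA are FPKM values that the authors deposited, 1 per group. The deposited log2 fold changes, p-values and q-values are the authors' own, and the fold enrichment of a peak is their ratio of ChIP over input. TopHat2 2.0.10, MACS 1.4.2 and build mm9 are named in the submitters' processing notes; for the FPKM program, and for how peaks got a gene and a motif, the tool is not given in the sources used here. The liver RNA table lists only genes that passed the authors' thresholds.

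Ratios of FPKM values, peak overlaps (at least 1 bp), distances and motif searches were computed with Python 3.11.15 and pandas 2.3.3, after checks on simulated data. With 1 value per group no test was run; q at most 0.05 is the authors' call. The lowest K1 level in the 4sU table is 0.1 FPKM, shared by 101 genes, and the tables give no counts, so depth and counting error are unknown. The labels do not say if K1 libraries came from separate cultures, or livers from separate litters. Locus starts were counted 1 higher than in the table, because 429 of 1417 loci match the RefSeq length as end minus start. Peak positions are mm9 and promoters GRCm38.p6, and they were not joined by coordinate. Of the 49 genes 2 matched RefSeq by a synonym only. The values of 1 of the 49 genes are not reported here, though it is in the counts.

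The members and the lists were chosen with earlier results of these data known. Genes to be named were those with a KLF1 peak and a liver row, the 10 highest K1-ER over K1 ratios at 1 FPKM or more in K1, the 6 lowest K1-NanER over K1 ratios, the 6 highest K1-ER levels, the 3 nearest each limit and members of the lists; the remaining members were named after their values were seen. Other limits, pseudocounts, peak distances and motifs were tried, and 4 alternatives were chosen after seeing the data.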

Additional observations from a re-analysis of the deposited data

How the results depend on the processing

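Of 26 alternatives, 19 moved the count or share by at most 1.5 times and 7 by more. The number of genes was 21 at a K1-ER over K1 ratio of at least 3, 29 at a K1-NanER over K1 ratio of at most 0.8 and 81 at one of at most 1.2. Genes with a Nan-KLF1 peak numbered 21 within 10 kb (33.2% of the table), 33 within 50 kb (50.8% of the table) and 8 among the peaks above the median fold enrichment of the list (17.7% of the table). Summits within 50 bp left 6 shared KLF1 peaks, a choice made after seeing the data. CACCC was in 40.9% of windows over the 100 bases before the start, against 27.2% of all windows. With 1 value per group, libraries could not be left out in turn. No paired analysis was possible because the tables carry 1 value per group and no replicate columns. The tables give no counts, so the precision of low levels such as those of Nyap1, Lrrc4b and Map1a in K1 is unknown.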
